A study of Mus musculus with 8 samples.

Results

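Chemokines and their receptors were followed across bulk RNA-seq libraries of iGMPs, mouse granulocyte-macrophage progenitors made immortal, after loss of the histone chaperone CAF-1 or of HOXA9 activity. The members were all gene symbols in the count files that start with Ccl, Cxcl, Xcl, Cx3cl, Ccr, Cxcr, Xcr or Cx3cr followed by a digit, and no measured value entered this choice. Of 34199 genes in the files, 60 were members, of which 40 were ligands and 20 were receptors. Relatives with other kinds of names, such as Pf4, Ppbp and Ccrl2, were not members and are named only where a member's neighbourhood or partner needs them.

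Chemokines are small secreted proteins that draw white blood cells along a gradient, and their receptors are membrane proteins coupled to inhibitory G proteins. The ligand families are named after the spacing of conserved cysteines (CC, CXC, XC and CX3C), and many of their genes lie in clusters that arose by gene duplication. In the bone marrow, CXCR4 holds immature myeloid cells in place, CXCR2 and its ligands draw neutrophils out, and CCR2 and its ligands draw out monocytes.

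All cells came from C57Bl/6 bone marrow. They carried HOXA9 fused to an estrogen receptor ligand-binding domain, which works only with estradiol in the medium, together with a GFP reporter under the lysozyme promoter, and all grew with stem cell factor. Uninduced cells were harvested at 0 h under 150 ng/ml estradiol. CAF-1 OFF cells had 500 µM IPTG for 48 h, which switches on an shRNA to Chaf1b, a CAF-1 subunit, while estradiol stayed in the medium per the study's methods. The IPTG-treated control cells also had IPTG for 48 h and, per the study's methods, carry a control vector with no Chaf1b hairpin. HOXA9 OFF cells were kept 48 h without estradiol, which starts their maturation toward neutrophils. The lines are clonal, and the labels do not give the vector of the uninduced or HOXA9 OFF cells or the estradiol of the IPTG-treated controls. They also do not say whether the 2 libraries of a group came from separate clones or cultures. A difference of vector or clone between groups, or of harvest time from the uninduced cells, cannot be told apart from the treatment. The study's supplement says that RNA-seq of all but the IPTG-treated control group came from independent sub-clones, without saying which library is which. As the labels do not give this, p-values are taken to measure the spread between these libraries, part of which may be technical.

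Each group held 2 libraries, with 14044284 to 22423837 counts in genes, so that 3 counts, the detection floor used here, stood for 0.128 to 0.212 CPM (counts scaled to the size of the library, with TMM factors). Chaf1b, the hairpin target, measured 96.8 and 100.2 CPM in uninduced, 18.7 and 9.72 CPM in CAF-1 OFF, 95.1 and 101.7 CPM in the IPTG-treated controls and 48.3 and 41.0 CPM in HOXA9 OFF. The HOXA9 OFF libraries differed most from each other (chi-square per degree of freedom 78.2, against 16.6 to 23.8 in the other groups), and this touches several CC chemokines described later. In IPTG-treated control replicate 1, 15.0% of reads lay outside genes, against 5.46% to 7.99% in the other libraries. The summed level of 8 progenitor markers was 11428 to 16772 CPM outside HOXA9 OFF and 5963 to 8109 CPM in HOXA9 OFF. The sum of 8 maturing-neutrophil markers was 94.2 to 98.3 CPM in both control groups, 1272 and 2209 CPM in CAF-1 OFF and 9107 and 6187 CPM in HOXA9 OFF, and that of 8 monocyte or macrophage markers was 56.6 to 93.3, 217 and 418, and 1286 and 1803 CPM, respectively. Mmp8 alone made up 1090 and 1935 CPM of the neutrophil sum in CAF-1 OFF. In bulk RNA, more cells of a maturing type and more RNA per cell cannot be told apart, and the part of these shifts in the results on chemokines was not tested.

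A member was called expressed in a group when both libraries reached 1 CPM. By this rule 21 of 60 members were expressed in at least 1 group, 11 ligands and 10 receptors. Uninduced cells expressed 11 members (6 ligands and 5 receptors), the IPTG-treated controls 7 (4 and 3), CAF-1 OFF cells 18 (10 and 8) and HOXA9 OFF cells 15 (7 and 8). The order of the last 2 groups turned with a limit of 5 CPM (9 and 11 members), and the numbers at 0.5 CPM were 14, 13, 22 and 20 in the same order of groups. The 7 members expressed in all 4 groups included the ligands Ccl3, Ccl4, Ccl9 and Ccl25 and the receptors Ccr2 and Cxcr4. Expressed in CAF-1 OFF cells alone by this rule were Cxcl2, Cxcl3, Cxcl9, Ccr4 and Ccr10, and in HOXA9 OFF cells alone Ccl2, Ccr3 and Cxcr3. The rule makes no test of a difference: Cxcl2 missed it in HOXA9 OFF cells through 1 library at 0.868 CPM.

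At the other end, 14 members had no count in any library and 9 had at most 3 counts in every library. Among the 14 were Cxcl1, Ccl11, Ccl20, Ccl26, Cxcl14, Ccr9 and Cxcr6. The remaining 7 of them (Ccl19, Ccl19-ps1, Ccl19-ps3, Ccl21a, Ccl21b, Ccl21c and Ccl27b) include near-identical copies on chromosome 4 whose reads could have been lost as multiple alignments, and their absence is uncertain. The 9 were Ccl1, Ccl8, Ccr8, Cxcl5, Cxcl11, Cxcl12, Cxcl17, Cxcr1 and Xcl1. Of the 37 members above 3 counts in some library, 26 passed the filter on low counts and were tested, 13 ligands and 13 receptors. The filter keeps genes that reach its minimum in 1 group alone, so members that were low in the controls entered only through the group in which they were high.

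**Figure D1:**
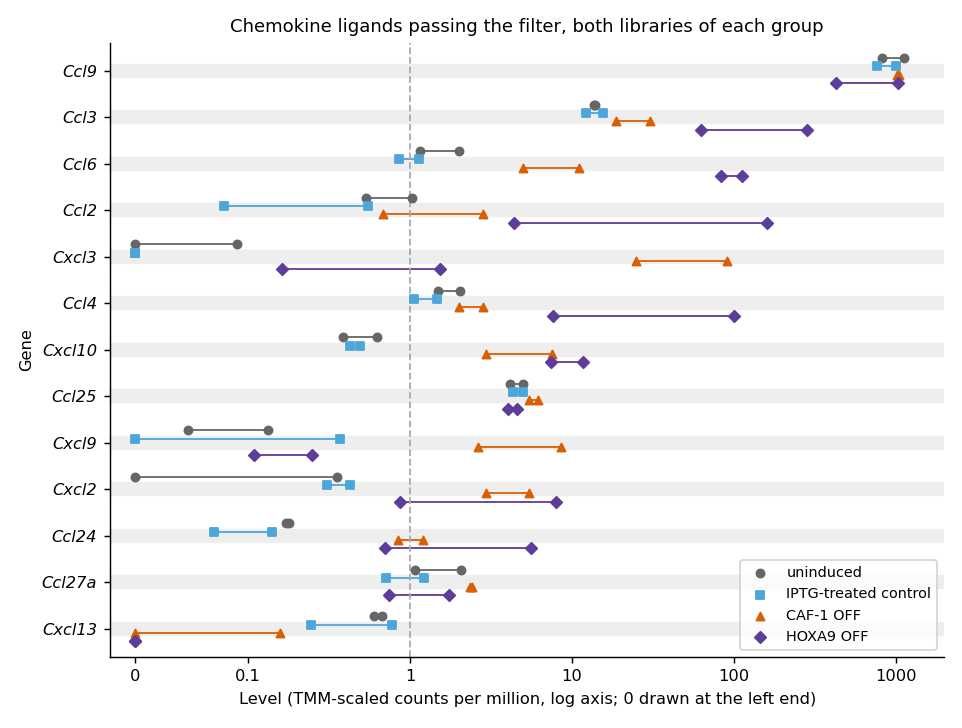
Level of the 13 tested chemokine ligands in CPM on a log axis, with values of 0 drawn at the left end. Each symbol is 1 library, a line joins the 2 libraries of a group, and the dashed line marks 1 CPM. Ccl9 lies between 431 and 1125 CPM in every library, the CAF-1 OFF libraries of Cxcl3 at 24.7 and 91.4 CPM stand right of all others, and the HOXA9 OFF libraries of Ccl2 lie far apart at 4.39 and 159.9 CPM.

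**Figure D2:**
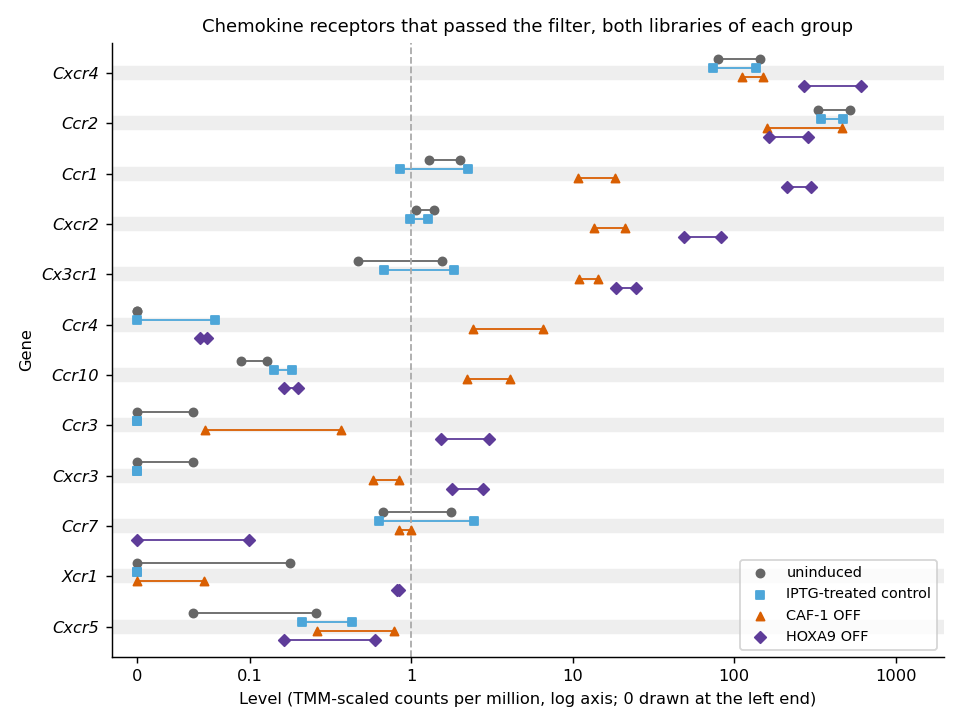
Level of 12 of the 13 tested chemokine receptors, drawn in the same way (CPM, log axis, 1 symbol per library, 0 at the left end). Ccr1 and Cxcr2 step up from both control groups through CAF-1 OFF to HOXA9 OFF, whereas Ccr4 and Ccr10 are above 1 CPM in the CAF-1 OFF libraries alone.

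CAF-1 OFF was first set against uninduced, which asks what changes after loss of CAF-1 under self-renewing conditions. Here 11 of the 26 tested members were called higher and none lower. A call needed a Benjamini-Hochberg FDR under 0.05 over all 13080 tested genes in edgeR's quasi-likelihood test and a change of at least 1.5-fold. Of all tested genes, 14% were called, 10.5% higher and 3.5% lower. Those called were 5 of 13 ligands (Ccl6, Cxcl2, Cxcl3, Cxcl9 and Cxcl10) and 6 of 13 receptors (Ccr1, Ccr4, Ccr10, Cx3cr1, Cxcr2 and Cxcr3). The count depended on 3 of the 4 libraries: it was 2 without uninduced replicate 1 (Cx3cr1 and Cxcr2), 6 without uninduced replicate 2 (Ccr1, Ccr4, Ccr10, Cx3cr1, Cxcl3 and Cxcr2) and 5 without CAF-1 OFF replicate 2 (Ccr1, Ccr4, Ccr10, Cxcl3 and Cxcr2), while the share of all genes called was then 1.14%, 6.09% and 1.98%. Without CAF-1 OFF replicate 1 it was 10, with Cxcl2 lost and 9.79% of all genes called.

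Against the IPTG-treated controls, which had the inducer as well, 10 members were called higher in CAF-1 OFF cells and none lower, with a background of 12.8% of all tested genes (9.56% higher and 3.2% lower). These were the 11 members above except Cxcl2 (FDR 0.0859). Without IPTG-treated control replicate 1, the library with many reads outside genes, 3 of these stayed called (Ccr1, Cx3cr1 and Cxcr2). Without the other IPTG-treated control library it was 1 (Cxcr2), and without CAF-1 OFF replicate 2 it was 4 (Ccl6, Ccr1, Cxcl3 and Cxcr2), where 2.12%, 1.43% and 1.72% of all genes were called. Between the IPTG-treated controls and uninduced cells no member was called and none had an unadjusted p under 0.05 in edgeR or in DESeq2. Over all genes edgeR called 0% there, with 100 genes at an unadjusted p under 0.05, and DESeq2 called 5 genes. The 100 genes were 0.765% of those tested in edgeR. A limit of 0.05 would pass a larger share even if nothing differed, so the test was cautious there. Its 0 calls do not show that IPTG had no effect.

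Withdrawal of estradiol moved more members, but also far more genes overall. In HOXA9 OFF against uninduced cells 15 members were called higher and 2 lower (Ccr7 and Cxcl13), where 47.2% of all tested genes were called, 25.2% higher and 22.1% lower. The 15 were 7 ligands (Ccl2, Ccl3, Ccl4, Ccl6, Ccl24, Cxcl2 and Cxcl10) and 8 receptors (among them Ccr1, Ccr3, Cx3cr1, Cxcr2, Cxcr3, Cxcr4 and Xcr1). Without uninduced replicate 2 the total was 11, with Ccl2, Ccl24, Cxcl2, Cxcr4, Xcr1 and Ccr7 no longer called and 40.6% of all genes called, and without uninduced replicate 1 the calls of Ccl2, Ccl24 and Cxcl13 were lost. Without HOXA9 OFF replicate 2 the total was 14, as Ccl2, Ccl24, Cxcl2 and Xcr1 were lost and Ccl9 was gained as lower, with 43.3% of all genes called.

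The direct comparison of CAF-1 OFF with HOXA9 OFF cells called 5 members higher and 11 lower in CAF-1 OFF, with 43.5% of all tested genes called (22.2% higher and 21.4% lower). Higher in CAF-1 OFF were Cxcl3, Cxcl9, Ccr4, Ccr7 and Ccr10. The lower ones included Ccl2, Ccl3, Ccl4, Ccl6, Ccr1, Ccr3, Cxcr2, Cxcr3, Cxcr4 and Xcr1. Without CAF-1 OFF replicate 1 the total was 9, with Ccl2, Ccl3, Ccl4, Ccr3, Ccr7, Cxcr3, Cxcr4 and Xcr1 no longer called, Ccl17 gained and 34.9% of all genes called. Over all 46 members with at least 1 count, fitted with no filter, the median log2 fold change was 0.81 in CAF-1 OFF and 2.34 in HOXA9 OFF against uninduced cells, beside 0.01 and 0 over all 21216 genes with a count. Against the IPTG-treated controls it was 2.32 in CAF-1 OFF, beside 0 over all genes. These medians include members at 1 or a few counts, whose fitted changes depend on the prior count.

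**Figure D3:**
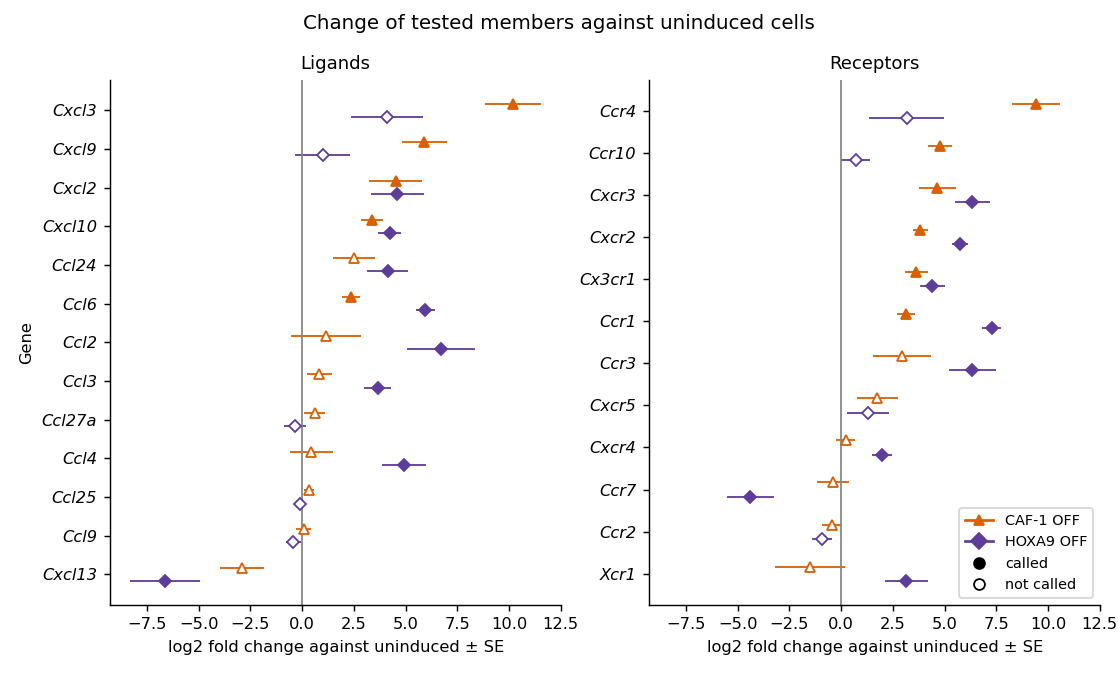
Fitted log2 fold change against uninduced cells with its standard error for the tested members (13 ligands and 12 receptors) in CAF-1 OFF (triangles) and HOXA9 OFF (diamonds) cells, filled where the change was called. Both comparisons share the uninduced libraries, and changes of genes near 0 counts in a group depend on the fit's prior count. Filled triangles stand for 11 members, all right of 0, and filled diamonds for 16, of which Ccr7 and Cxcl13 lie left of 0.

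Among the ligands, Cxcl3 showed the widest separation of CAF-1 OFF from the other groups. Cxcl3 encodes a neutrophil attractant that signals through CXCR2, and it lies on chromosome 5 at 91215129 to 91217112 (mm9, plus strand) in a cluster of 7 CXC genes over 146.6 kb. It was at 0 and 0.0855 CPM in uninduced, 0 and 0 CPM in the IPTG-treated controls, 24.7 and 91.4 CPM in CAF-1 OFF and 0.163 and 1.54 CPM in HOXA9 OFF. Both CAF-1 OFF libraries, with 470 and 1749 reads, lay above all others and themselves differed 3.69-fold. Relative to the uninduced libraries, which had 2 reads together, Cxcl3 was 1334-fold higher in CAF-1 OFF (95% exact counting interval 369 to 11019, edgeR FDR 0.00717, or 0.0717 without uninduced replicate 1), and relative to the IPTG-treated controls, at 0, it was at least 274-fold higher (FDR 0.00906). Its level also exceeded that in HOXA9 OFF cells (log2 fold change 6.06 ± 0.99 SE, FDR 0.00241). HOXA9 OFF against uninduced was not called (ratio 20.2, 95% counting interval 5.18 to 173, FDR 0.0824), except with no filter, with the replicate number as a block or without HOXA9 OFF replicate 1. Counting intervals and floors cover counting error only, since PCR copies were not told apart from molecules. Of the 50-base windows of the Cxcl3 transcript, 93.7% occur in no other coding gene, and the shared ones match Cxcl2.

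The neighbours of Cxcl3 did not move alike. Cxcl2, another CXCR2 ligand, was at 0.356 and 0 CPM in uninduced, 0.424 and 0.307 CPM in IPTG-treated control, 2.95 and 5.43 CPM in CAF-1 OFF and 0.868 and 7.93 CPM in HOXA9 OFF. It rose in CAF-1 OFF (log2 fold change 4.53 ± 1.29 SE against uninduced, FDR 0.0447) and in HOXA9 OFF (4.60 ± 1.29 SE, FDR 0.0167), and CAF-1 OFF and HOXA9 OFF did not differ detectably (-0.07 ± 0.99 SE, FDR 0.955). The call in CAF-1 OFF was lost without either library of uninduced, CAF-1 OFF or IPTG-treated control (FDR 0.0709 to 0.196), and that in HOXA9 OFF without HOXA9 OFF replicate 2 (log2 fold change 2.26, FDR 0.128). Cxcl1, which lies between Cxcl15 and Cxcl2 and encodes the closest relative of both in function, had no read in any of the 8 libraries. Cxcl5 had 1 read in each CAF-1 OFF library. Cxcl15 had 3 and 10 reads in the CAF-1 OFF libraries and none in the other 6, too few to pass the filter. Of the adjoining platelet chemokine genes, which are not members, Pf4 was at 2.67 and 3.04 CPM in uninduced, 55.7 and 124.3 CPM in CAF-1 OFF and 1.25 and 20.8 CPM in HOXA9 OFF (called higher in CAF-1 OFF, FDR 0.0192), and Ppbp was at 0.356 and 0, 1.74 and 4.07, and 0.976 and 15.2 CPM (FDR 0.0922 in CAF-1 OFF, not called, and 0.0146 in HOXA9 OFF, called higher).

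Upstream sequences of the 3 neighbours with the closest protein function are shown because their levels differ and their promoters share a binding motif. They were taken from RefSeq (GRCm38.p6 table, in which 41 of 60 members have a promoter) and found by exact match in mm9 on chromosome 5, plus strand: chr5:91214877-91215126 for Cxcl3, chr5:91332675-91332896 for Cxcl2 and chr5:91320021-91320266 for Cxcl1, each ending before the annotated gene start. Capitals mark the NF-kB motif GGAATTTCC and the TATA box motif TATAAA.

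Cxcl3: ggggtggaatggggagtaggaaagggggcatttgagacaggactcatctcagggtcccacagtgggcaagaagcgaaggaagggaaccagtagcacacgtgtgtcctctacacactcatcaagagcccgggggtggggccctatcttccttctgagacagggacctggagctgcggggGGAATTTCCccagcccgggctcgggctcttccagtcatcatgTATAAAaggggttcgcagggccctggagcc

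Cxcl2: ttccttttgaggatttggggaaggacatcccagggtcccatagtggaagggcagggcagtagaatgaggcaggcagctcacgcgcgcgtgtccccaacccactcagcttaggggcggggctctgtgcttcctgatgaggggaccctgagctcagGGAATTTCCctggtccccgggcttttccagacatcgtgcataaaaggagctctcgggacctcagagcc

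Cxcl1: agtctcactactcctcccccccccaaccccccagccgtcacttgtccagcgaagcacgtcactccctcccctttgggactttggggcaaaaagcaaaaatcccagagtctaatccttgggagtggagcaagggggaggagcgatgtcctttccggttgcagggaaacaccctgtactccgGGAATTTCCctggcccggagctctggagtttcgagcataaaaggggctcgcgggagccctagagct

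The NF-kB motif starts 74 bases upstream of the gene start in Cxcl3, 68 in Cxcl2 and 66 in Cxcl1, counted from the mm9 gene starts, and 72, 96 and 70 bases upstream counted from the RefSeq starts. Cxcl1, with no read, holds this motif as Cxcl2 and Cxcl3 do, and its part in their levels was not tested. Searched on both strands over 250 bases upstream, the NF-kB motif occurs in 94 of 32851 RefSeq promoters (0.286%) and in those of 5 of the 41 members, the others being Cxcl10 and Ccr3. TATAAA, found 32 bases upstream of Cxcl3, occurs in 12.4% of all promoters and in 13 of the 41. At a similar place Cxcl2 and Cxcl1 hold cataaa, which an exact search for TATAAA does not mark. The motif TTGCNNAA of C/EBP factors is in 9.56% of promoters and those of 4 members (Ccl21a, Ccl27a, Ccl27b and Cxcl13), and the ETS motif CCGGAAG is in 6.91% and that of 1 member (Ccl27a). Binding was not measured in these files. The study mapped binding of ELF1, an ETS factor, and of CEBPA by ChIP-seq, which was not examined here. A match is only a match of letters, and sites outside these 250 bases were not searched, so a missing match does not speak to binding elsewhere.

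**Figure D4:**
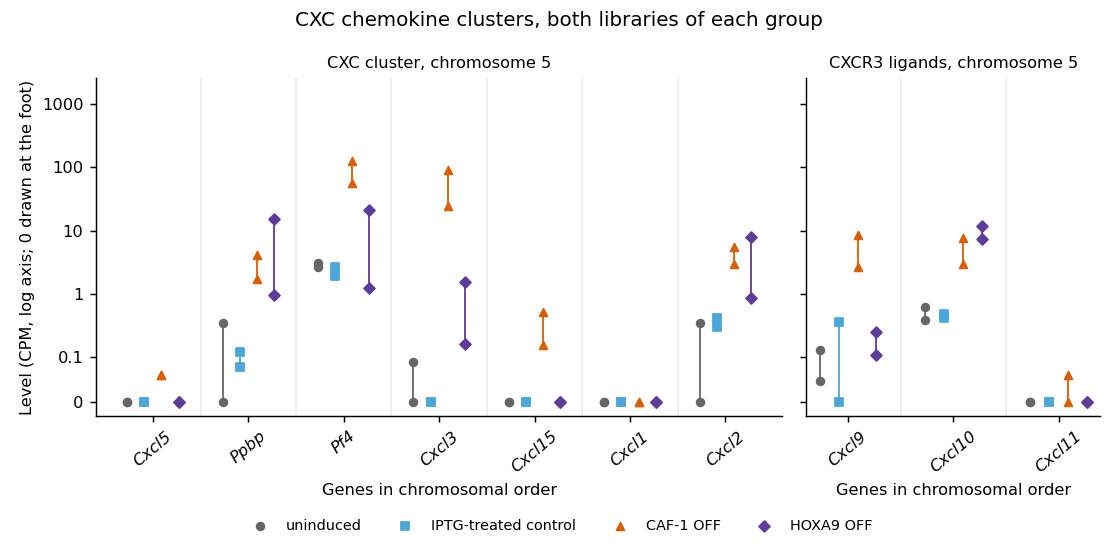
Level in CPM (log axis, 0 at the foot) of the genes of the chromosome 5 CXC cluster and of the CXCR3 ligands, in chromosomal order, 1 symbol per library. In the CXC cluster the CAF-1 OFF libraries stand at 24.7 and 91.4 CPM for Cxcl3 and at 55.7 and 124.3 CPM for Pf4, while Cxcl1 is at 0 in every library.

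The ligands of CXCR3, which attract activated lymphocytes and are known interferon-response genes, form a cluster of their own further along chromosome 5. Cxcl9 was at 0.133 and 0.0428 CPM in uninduced, 0 and 0.368 CPM in IPTG-treated control, 2.63 and 8.62 CPM in CAF-1 OFF and 0.108 and 0.248 CPM in HOXA9 OFF. It rose in CAF-1 OFF (ratio to uninduced 64.6, 95% counting interval 24.9 to 239, FDR 0.0129, and 28.6, 12.9 to 78.8, against IPTG-treated controls, FDR 0.0214) and exceeded HOXA9 OFF (log2 fold change 4.91 ± 1.01 SE, FDR 0.00474). The call against uninduced was lost without uninduced replicate 1 or 2 (FDR 0.0865 and 0.075) or without CAF-1 OFF replicate 2 (log2 fold change 4.81, FDR 0.101). Its neighbour Cxcl10 was at 0.623 and 0.385 CPM in uninduced, 0.424 and 0.490 CPM in IPTG-treated control, 2.95 and 7.57 CPM in CAF-1 OFF and 7.38 and 11.6 CPM in HOXA9 OFF. Unlike Cxcl9 it rose in both conditions (3.37 ± 0.55 SE, FDR 0.00928, and 4.23 ± 0.56 SE, FDR 0.000428), with no called difference between them (-0.85 ± 0.46 SE, FDR 0.157). Cxcl10 overlaps the gene Art3 on the other strand by 133 exonic bases, and the counting is not stated to use strand. Cxcl11 had 1 read in CAF-1 OFF replicate 2 and none elsewhere. Cxcl13, the B-cell follicle chemokine, was low from the start, at 0.667 and 0.599 CPM in uninduced and 0.777 and 0.245 CPM in IPTG-treated control. It was listed at 0 and 0.157 CPM in CAF-1 OFF (FDR 0.102, not called) and had no read in HOXA9 OFF, at least 3.89-fold lower than in uninduced cells (FDR 0.0138).

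Among the CC ligands, Ccl2, Ccl3, Ccl4, Ccl6 and Ccl24 had their highest mean levels in HOXA9 OFF cells, whereas Ccl9, Ccl25 and Ccl27a had theirs in CAF-1 OFF cells. On chromosome 11, Ccl9 and Ccl6, both CCR1 ligands typical of mouse myeloid cells, lie next to each other with Ccl5, Ccl3 and Ccl4 over 138.9 kb. Ccl9 had the highest mean level per kb of the ligands in every group. Its level was 1125 and 820 CPM in uninduced, 1003 and 762 CPM in IPTG-treated control, 1017 and 1045 CPM in CAF-1 OFF and 431 and 1026 CPM in HOXA9 OFF, and was not called with all libraries (log2 fold change 0.08 ± 0.36 SE in CAF-1 OFF and -0.42 ± 0.36 SE in HOXA9 OFF against uninduced), while without HOXA9 OFF replicate 2 it was called lower in HOXA9 OFF. Ccl6 started at 2.00 and 1.15 CPM in uninduced and 1.13 and 0.858 CPM in IPTG-treated control and rose to 5.0 and 11.1 CPM in CAF-1 OFF (2.35 ± 0.43 SE, FDR 0.0125) and to 83.6 and 112.5 CPM in HOXA9 OFF (5.96 ± 0.45 SE, FDR 3.61e-05). The CAF-1 OFF level of Ccl6 lay between both control groups and HOXA9 OFF with no overlap of libraries, and it was lower than in HOXA9 OFF (-3.60 ± 0.39 SE, FDR 0.000239).

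Ccl3 and Ccl4, the macrophage inflammatory proteins, were called in HOXA9 OFF alone among the comparisons with uninduced cells. Ccl3 was at 13.7 and 13.9 CPM in uninduced, 12.3 and 15.6 CPM in IPTG-treated control, 18.8 and 30.5 CPM in CAF-1 OFF and 62.8 and 283.6 CPM in HOXA9 OFF. Its rise in HOXA9 OFF was 3.65 ± 0.65 SE on the log2 scale (FDR 0.00192), while the CAF-1 OFF libraries lay above the controls without a call (0.84 ± 0.61 SE, FDR 0.356), and it was lower in CAF-1 OFF than in HOXA9 OFF (FDR 0.00639). Ccl4 was at 2.05 and 1.5, 1.06 and 1.47, 2.00 and 2.82, and 7.65 and 100.7 CPM in the same order of groups, with a log2 fold change of 4.93 ± 1.07 SE in HOXA9 OFF (FDR 0.00528) and 0.44 ± 1.04 SE in CAF-1 OFF (FDR 0.791). Ccl5 did not exceed 5 reads in any library.

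The monocyte attractants of the other chromosome 11 cluster, which bind CCR2, showed how far the HOXA9 OFF libraries stand apart. Ccl2 was at 0.534 and 1.03 CPM in uninduced, 0.0706 and 0.552 CPM in IPTG-treated control and 0.684 and 2.82 CPM in CAF-1 OFF. In HOXA9 OFF it was at 4.39 CPM in replicate 1 and 159.9 CPM in replicate 2, 36.4-fold apart. Both HOXA9 OFF libraries lay above all others and the rise was called (log2 fold change 6.70 ± 1.64 SE, FDR 0.0091), but without replicate 2 the change was 2.48 with FDR 0.0526. Ccl7 did not pass the filter for the same reason: it had 7 reads in HOXA9 OFF replicate 1 and 1227 in replicate 2 (0.380 and 60.8 CPM), and at most 3 reads in any other library. Ccl12 had 1 and 53 reads in these libraries and at most 2 elsewhere, Ccl11 had none, and Ccl8 had 1. HOXA9 OFF replicate 2 was also the higher library for Ccl3 (4.52-fold), Ccl4 (13.2-fold), Ccl24 (7.94-fold) and Cxcl2 (7.93 against 0.868 CPM), whereas for Ccl6 both libraries were within 1.35-fold. The monocyte or macrophage marker sum was 1803 CPM in replicate 2 and 1286 CPM in replicate 1, and the neutrophil marker sum was 6187 and 9107 CPM. The part of this in the gap between replicates was not tested.

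**Figure D5:**
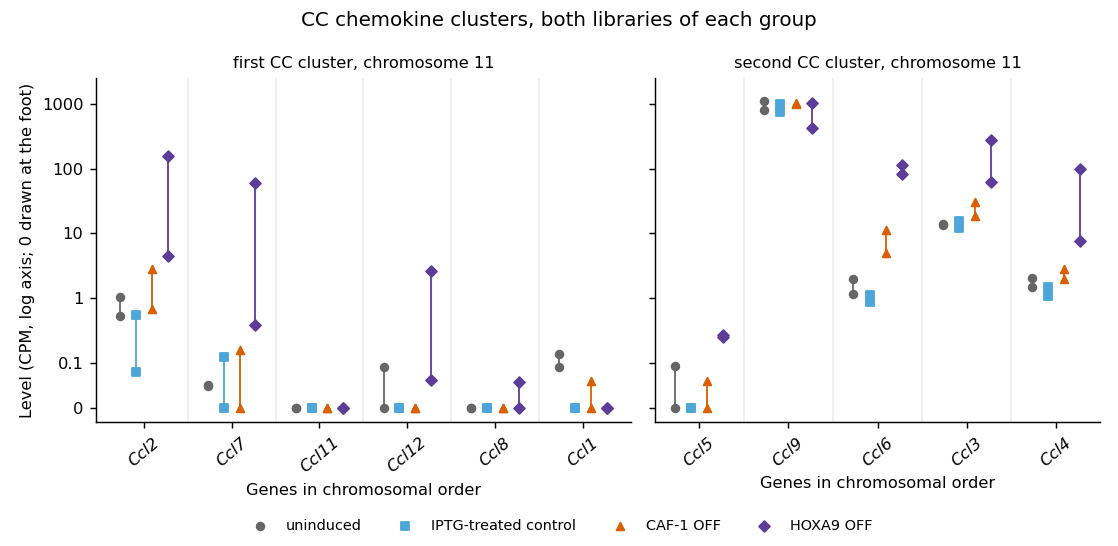
Level in CPM (log axis, 0 at the foot) of the genes of both CC clusters of chromosome 11, in chromosomal order, 1 symbol per library. The 2 HOXA9 OFF libraries lie far apart for Ccl2 (4.39 and 159.9 CPM), Ccl7 (0.380 and 60.8 CPM) and Ccl4 (7.65 and 100.7 CPM) and close together for Ccl6 (83.6 and 112.5 CPM).

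Of the remaining CC ligands, Ccl24 (eotaxin-2, a CCR3 ligand) was at 0.178 and 0.171 CPM in uninduced, 0.141 and 0.0613 CPM in IPTG-treated control, 0.842 and 1.20 CPM in CAF-1 OFF and 0.705 and 5.6 CPM in HOXA9 OFF. It was called higher in HOXA9 OFF (4.13 ± 0.99 SE, FDR 0.00823) and not in CAF-1 OFF (2.51 ± 1.01 SE, FDR 0.115), although both CAF-1 OFF libraries exceeded all control libraries. Leaving either HOXA9 OFF library out of the fit made Ccl24, and Ccl3 too, called in CAF-1 OFF, and without HOXA9 OFF replicate 2 its change in HOXA9 OFF was 1.98 with FDR 0.0669. Ccl25, a thymus and gut chemokine that binds CCR9, stayed within 4.01 to 6.21 CPM over all 8 libraries and was called in no comparison, except lower in HOXA9 OFF than in CAF-1 OFF with library sizes unscaled. Ccl27a was within 0.706 to 2.42 CPM and called nowhere, but only 58.1% of its transcript windows are unique, so its counts are uncertain. Ccl17 and Ccl22, the ligands of CCR4, were at most 3 reads and 1 read outside HOXA9 OFF and had 10 and 14 and 2 and 12 reads in the HOXA9 OFF libraries, under the filter. Cx3cl1, the ligand of CX3CR1, had 2 to 9 reads in each of the 6 libraries outside HOXA9 OFF and none in HOXA9 OFF, and Cxcl16, the ligand of CXCR6, had at most 5 reads.

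Among the receptors, Ccr1 and Cxcr2 rose in steps from the controls through CAF-1 OFF to HOXA9 OFF. Ccr1, the receptor of Ccl3, Ccl6 and Ccl9, was at 2.00 and 1.28 CPM in uninduced, 2.26 and 0.858 CPM in IPTG-treated control, 10.7 and 18.3 CPM in CAF-1 OFF and 212 and 300.0 CPM in HOXA9 OFF. The log2 fold change against uninduced cells was 3.14 ± 0.42 SE in CAF-1 OFF (FDR 0.00573) and 7.28 ± 0.45 SE in HOXA9 OFF (FDR 1.95e-05), and the level in CAF-1 OFF was lower than in HOXA9 OFF (-4.14 ± 0.37 SE, FDR 0.000114). Cxcr2, the neutrophil receptor of Cxcl1, Cxcl2, Cxcl3 and Cxcl5, was at 1.38 and 1.07, 1.27 and 0.981, 13.6 and 21.1, and 82.5 and 48.6 CPM in the same order. Its change was 3.82 ± 0.36 SE in CAF-1 OFF (FDR 0.00225) and 5.74 ± 0.38 SE in HOXA9 OFF (FDR 2.43e-05), again lower in CAF-1 OFF than in HOXA9 OFF (-1.92 ± 0.31 SE, FDR 0.00143). For both genes the 3 levels did not overlap, and the rise of Cxcr2 in CAF-1 OFF was called under every alternative tried. Cxcr1, the neighbour of Cxcr2 on chromosome 1, had 1 read in all 8 libraries.

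Cx3cr1, the fractalkine receptor of monocytes, rose in both conditions to levels not called apart. It was at 1.56 and 0.470 CPM in uninduced, 1.84 and 0.674 CPM in IPTG-treated control, 11 and 14.3 CPM in CAF-1 OFF and 24.8 and 18.4 CPM in HOXA9 OFF (3.64 ± 0.57 SE, FDR 0.00861, and 4.41 ± 0.59 SE, FDR 0.000453, against uninduced; -0.77 ± 0.49 SE, FDR 0.218, between them). Cxcr3, better known from T and NK cells, had 1 read in all control libraries together. It reached 0.579 and 0.836 CPM in CAF-1 OFF and 1.79 and 2.78 CPM in HOXA9 OFF, 32.5-fold (95% counting interval 5.35 to 1329, FDR 0.0182) and 105.7-fold (18.5 to 4221, FDR 0.000783) above uninduced, and the call between CAF-1 OFF and HOXA9 OFF (FDR 0.0402) was lost with library sizes unscaled (0.0628), with DESeq2 (0.152), without either library of CAF-1 OFF (0.206 and 0.119) or HOXA9 OFF (0.059 and 0.195) and without IPTG-treated control replicate 2 (0.0501). Of 7 T or NK cell markers, Cd3e, Cd3g, Cd8a and Ncr1 had no read in any library, and the summed level of all 7 was at most 1.14 CPM.

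Ccr4 and Ccr10, which are known from T-cell subsets homing to skin, were called higher in CAF-1 OFF cells against every other group. Ccr4 (chromosome 9 at 114399434 to 114405662, mm9, minus strand) had no read in uninduced cells, 1 read in the IPTG-treated controls, 46 and 126 reads in CAF-1 OFF and 1 read in each HOXA9 OFF library. Its level in CAF-1 OFF was 2.42 and 6.58 CPM, at least 33.7-fold above uninduced (FDR 0.00602), with a ratio of 137 to IPTG-treated controls (95% counting interval 24.3 to 5457, FDR 0.00968) and of 87.0 to HOXA9 OFF (23.7 to 724, FDR 0.00127). Ccr10 (chromosome 11 at 101034311 to 101036757, minus strand) was at 0.0890 and 0.128 CPM in uninduced, 0.141 and 0.184 CPM in IPTG-treated control, 2.21 and 4.07 CPM in CAF-1 OFF and 0.163 and 0.198 CPM in HOXA9 OFF. The ratio of CAF-1 OFF to uninduced was 28.8 (12.0 to 90.5, FDR 0.00408), and the log2 fold change against HOXA9 OFF was 4.07 ± 0.54 SE (FDR 0.000598). Neither gene shares exonic bases with another annotated gene. Of their ligands, Ccl17 and Ccl22 had at most 2 reads in a CAF-1 OFF library and Ccl27a was at 2.42 and 2.35 CPM.

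Cxcr4, Ccr3 and Xcr1 were called higher in HOXA9 OFF and not in CAF-1 OFF cells when each was set against uninduced cells, and these 3 were called lower in CAF-1 OFF than in HOXA9 OFF. Cxcr4, the receptor of Cxcl12, was at 144.7 and 79.1 CPM in uninduced, 136.4 and 73.6 CPM in IPTG-treated control, 110.9 and 150.7 CPM in CAF-1 OFF and 605 and 270.3 CPM in HOXA9 OFF (log2 fold change 0.23 ± 0.45 SE in CAF-1 OFF, FDR 0.752, and 1.97 ± 0.47 SE in HOXA9 OFF, FDR 0.00811). Ccr3, the eotaxin receptor of eosinophils and basophils, had 1 read in all control libraries together, 1 and 7 reads in CAF-1 OFF and 56 and 31 reads in HOXA9 OFF, at 3.04 and 1.54 CPM (FDR 0.00303 against uninduced). The eosinophil markers Epx and Prg2 were at 421 and 252 CPM and at 11631 and 7112 CPM in HOXA9 OFF, against 1.88 to 6.89 CPM and 486 to 1311 CPM in the other libraries. In the same list of 5, Siglec5 was also called higher in HOXA9 OFF, while the basophil protease gene Mcpt8 was called lower (log2 fold change -2.26) and the mast cell gene Cpa3 was not called (0.41, FDR 0.297). Xcr1, the receptor of cross-presenting dendritic cells, had 15 and 17 reads in HOXA9 OFF (ratio to uninduced 9.50, 3.37 to 37.0, FDR 0.0382), a call lost with DESeq2 (FDR 0.209) and when any single library but uninduced replicate 1 was left out.

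Ccr7, which guides lymphocytes and dendritic cells to lymph nodes, was the receptor that fell. It was at 0.667 and 1.75 CPM in uninduced, 0.636 and 2.45 CPM in IPTG-treated control and 0.999 and 0.836 CPM in CAF-1 OFF, and had 0 and 2 reads in HOXA9 OFF. The ratio of HOXA9 OFF to uninduced was 0.0424 (95% counting interval 0.00501 to 0.161, FDR 0.0114), and CAF-1 OFF did not differ detectably from uninduced (FDR 0.745). Ccr2, the receptor of Ccl2, Ccl7 and Ccl12, was at 331 and 522 CPM in uninduced, 343 and 469 CPM in IPTG-treated control, 464 and 158.7 CPM in CAF-1 OFF and 164.8 and 286.4 CPM in HOXA9 OFF and was not called with all libraries (-0.45 ± 0.49 SE and -0.92 ± 0.49 SE against uninduced), while without CAF-1 OFF replicate 1 it was called lower in HOXA9 OFF. Both HOXA9 OFF libraries were below both uninduced libraries, and the CAF-1 OFF libraries differed 2.92-fold. Cxcr5 stayed between 0.0445 and 0.783 CPM without a call. Under the filter, Ccr6 had no read in the 4 control libraries and 2 to 7 reads in each of the others, Cxcr7 (a scavenger receptor of Cxcl12) had 10 reads in CAF-1 OFF replicate 2 and at most 3 elsewhere, and Ccr1l1 had at most 4.

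Levels of different genes can be set side by side only per length of transcript. As mean CPM per kb of annotated exons, the ligands in uninduced cells were led by Ccl9 (319), followed by Ccl3 (18) and Ccl4 (2.68). Ccl25 has 2 annotated copies and was left out of this order, since its length is not settled. In CAF-1 OFF cells the order was Ccl9 (339), Cxcl3 (57.5), Ccl3 (32.1) and Ccl6 (4.49), where the place of Cxcl3 above Ccl3 rests on CAF-1 OFF replicate 2, and in HOXA9 OFF cells Ccl9 (239), Ccl3 (226), Ccl4 (82.1), Ccl2 (72.2), Ccl6 (54.6) and Ccl7 (38.2). The spread between the HOXA9 OFF libraries covers the gaps between these neighbours. The receptors were led by Ccr2 (66.7) and Cxcr4 (61.9) in uninduced, Cxcr4 (72.3) and Ccr2 (48.7) in CAF-1 OFF, and Cxcr4 (242), Ccr1 (90.4), Ccr2 (35.3) and Cxcr2 (21.6) in HOXA9 OFF cells. The libraries of Ccr2 and Cxcr4 overlap in uninduced and CAF-1 OFF cells, so their order there is not resolved, and neither is that of Ccr2 and Cxcr2 in HOXA9 OFF.

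Ligand and receptor of a pair did not always come together in these cultures. Against uninduced cells, Cxcr2 and its ligands Cxcl2 and Cxcl3 were all called higher in CAF-1 OFF, as were Cxcr3 and its ligands Cxcl9 and Cxcl10. Against the IPTG-treated controls Cxcl2 was not called (edgeR FDR 0.0859). Cxcr4 had over 70 CPM in every library while its ligand Cxcl12, a stromal product, had 1 read in all 8 libraries. Ccr2 was above 150 CPM in every library, with Ccl2 under 3 CPM outside HOXA9 OFF. Cx3cr1 rose in both conditions while Cx3cl1 stayed under 10 reads. RNA levels of cultured cells alone do not show whether a ligand reached its receptor.

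Genes that act with chemokine receptors were examined as lists, chosen by their known function. Of 26 genes for G proteins and effectors below the receptors, 4 were called higher in CAF-1 OFF and 19 in HOXA9 OFF against uninduced cells, with none lower, where 10.5% and 25.2% of all tested genes were called higher. Examples in HOXA9 OFF were the Src-family kinase Fgr (5.06 ± 0.31 SE), the PI3-kinase adaptor Pik3r5 (4.97 ± 0.41 SE) and the kinase Lyn (1.89 ± 0.15 SE). Of 13 tested genes for desensitisation and G-protein shut-off, 1 was higher in CAF-1 OFF (Arrb2, beta-arrestin 2) and 10 were higher and 1 lower in HOXA9 OFF (background 14% and 47.2% of all tested genes called), among them Grk5 (5.19 ± 0.49 SE), Rgs10 (2.63 ± 0.38 SE) and Rgs2 (2.44 ± 0.35 SE). Other chemoattractant receptors were called higher in 5 of 10 tested cases in CAF-1 OFF and 8 of 10 in HOXA9 OFF, where 10.5% and 25.2% of all tested genes were called higher. Against the IPTG-treated controls 3 of 10 were higher in CAF-1 OFF (C5ar1, Ltb4r1 and S1pr4), where 9.56% of all genes were. C5ar1, the complement C5a receptor, was at 0.400 and 0.428 CPM in uninduced, 8.73 and 15.3 CPM in CAF-1 OFF and 70.0 and 109.6 CPM in HOXA9 OFF, whereas the formyl peptide receptor Fpr1 had at most 0.0522 CPM outside HOXA9 OFF, where it was at 24.9 and 15.1 CPM.

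The list of NF-kB feedback genes and regulators of chemokine transcript decay, with 16 tested genes, had 4 higher in CAF-1 OFF (Nfkbia, Nfkbie, Tnfaip3 and Zfp36l1) and 11 higher and 1 lower in HOXA9 OFF, where 14% and 47.2% of all tested genes were called. Against the IPTG-treated controls 2 were higher in CAF-1 OFF (Nfkbia and Zfp36l1), where 12.8% of all genes were called. Its largest changes were those of Zfp36 (4.64 ± 0.32 SE), Zfp36l1 (3.14 ± 0.18 SE), Tnfaip3 (2.89 ± 0.26 SE) and Bcl3 (2.60 ± 0.25 SE) in HOXA9 OFF. Of 10 tested proteases that trim or shed chemokines, 4 were higher in CAF-1 OFF (Mmp8, Mmp13, Elane and Adam17) and 3 higher and 2 lower in HOXA9 OFF, again beside 14% and 47.2% of all tested genes. Mmp8, a neutrophil collagenase, reached 1090 and 1935 CPM in CAF-1 OFF and 556 and 376 CPM in HOXA9 OFF, against 42.6 to 60.9 CPM in both control groups, whereas Mmp9 reached 1.95 and 3.50 CPM in CAF-1 OFF and 308.5 and 185.3 CPM in HOXA9 OFF. Of 6 tested relatives of the family with other names, 3 were higher in CAF-1 OFF (Pf4, Ccrl2 and Cmklr1) and 3 higher and 1 lower in HOXA9 OFF (Ppbp, Ccrl2 and Cklf, and Mif), with the same backgrounds of 14% and 47.2%.

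Markers of other cell types that express these receptors in the body were set beside them. Over all 8 libraries the B-cell marker sum was 2.26 to 4.83 CPM in both control groups and HOXA9 OFF replicate 1 and 16.2 to 18 CPM in CAF-1 OFF and HOXA9 OFF replicate 2, with Cd79a at 15.5 and 15.3 CPM in CAF-1 OFF. The sum of 4 megakaryocyte markers, among them Pf4, was 24.9 to 30.8 CPM in the controls, 189.6 and 215 CPM in CAF-1 OFF and 131.4 and 126.3 CPM in HOXA9 OFF. Mcpt8, a basophil protease, reached 267 and 228 CPM in CAF-1 OFF, 28.9 to 34.3 CPM in both control groups and 7.38 and 5.95 CPM in HOXA9 OFF. The sum of 5 dendritic-cell markers, Xcr1 included, was 216 to 350 CPM outside HOXA9 OFF and 10.4 and 7.38 CPM within it. Nearly all of it outside HOXA9 OFF was Flt3, a receptor that progenitors share (9.27 and 2.43 CPM in HOXA9 OFF), and the other 4 markers were each under 4 CPM in every library. The sum of 5 stromal or endothelial markers was 244 to 429 CPM over all libraries. Most of it was Pecam1 (229 to 386 CPM), followed by Pdgfrb (7.27 to 36.2 CPM), while Col1a1, Col1a2 and Cdh5 were each under 4 CPM in every library. The part of these genes' expression in the levels of Ccr4, Ccr10, Ccr3 or Ccr7 was not tested.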

How the data were processed

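RNA was measured in 8 mouse iGMP libraries, 2 in each of 4 groups, made with a directional NEBNext kit. The authors aligned reads to mm9 with STAR and counted them per gene with HTSeq (named in the submitters' processing notes). The deposited values are raw counts per gene symbol, not normalized or pooled. The strand setting and annotation version are not given in the sources used here, and reads with several alignments were not assigned to genes, which lowers near-identical copies. HTSeq's 5 summary lines were kept apart.

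Groups and replicate numbers came from the labels. Testing used edgeR 4.0.16 under R 4.3.3, with filterByExpr on groups, TMM scaling, 1 quasi-likelihood fit of all 8 libraries with a mean per group, and Benjamini-Hochberg adjustment over 13080 genes. Calls needed FDR under 0.05 and 1.5-fold, as in the study's methods. The biological coefficient of variation was 18.9%. Standard errors were derived from F statistics. Against groups with no read, a fold is a lower bound taken at 3 counts in the library of that group with the highest CPM per count. With 1 to 6 reads in the lower group, the ratio of pooled counts is given with its exact 95% interval.

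Every member that passed the filter is named with values, except 1 receptor that is counted but not reported here, others with more than 3 counts by their reads; for the other lists at most 4 examples with the largest changes were named, and further genes, such as C5ar1, Fpr1, Mmp8, Mmp9, Epx, Prg2, Cd79a and Mcpt8, were chosen after their values were seen. Members, lists and tests were chosen with earlier results of these data known. Gene spans are from GENCODE vM1 on mm9, counted from 1; shared sequence was judged by 50-base windows of the longest coding transcript. The code was tested on simulated data. DESeq2 1.42.0, other scalings, filters, thresholds, a replicate block and leaving out each library were alternatives. Figures were drawn with matplotlib 3.10.9 in Python 3.11.15.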

Additional observations from a re-analysis of the deposited data

How the results depend on the processing

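Called changes of members reversed under none of the alternatives that could test them. Scaling by DESeq2 size factors or library size kept the number of called members in each comparison, although with library size Cxcr3 was lost and Ccl25 gained between CAF-1 OFF and HOXA9 OFF. With a mean of at least 50 counts required, which tests fewer members, 6 were called in CAF-1 OFF against uninduced, 11 in HOXA9 OFF against uninduced, 6 in CAF-1 OFF against the IPTG-treated controls and 10 between CAF-1 OFF and HOXA9 OFF, where 13.7%, 51.3%, 12.6% and 45.8% of all genes were called. At FDR under 0.01 and 2-fold, these numbers were 7, 13, 5 and 10, where 2.78%, 27.4%, 2.16% and 23% of all genes were called. When each library was left out in turn they ran from 2 to 13, 11 to 19, 1 to 13 and 9 to 19, and were 0 for the IPTG-treated controls against uninduced cells. In these fits a lone library was assumed to vary like the other groups. Expressed members at 5 CPM numbered 4 in uninduced, 4 in IPTG-treated control, 9 in CAF-1 OFF and 11 in HOXA9 OFF cells, and at 0.5 CPM there were 13 in the IPTG-treated controls.

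With the replicate number as a block, 11, 18, 10, 16 and 0 members were called (16.2%, 48.3%, 14.8%, 44.6% and 0% of all genes), and Cxcl3 was gained in HOXA9 OFF. Deviations of same-numbered libraries correlated over genes at 0.475, 0.301 and 0.316 among uninduced, IPTG-treated control and HOXA9 OFF, and at -0.0443, -0.0173 and 0.0756 with CAF-1 OFF. Same-numbered libraries outside CAF-1 OFF thus moved partly together, and the labels do not say why. The main fit did not use the numbers, so this shared part counts toward the spread between libraries. The block assumes the same numbering in CAF-1 OFF, where these values do not show it. Members at a few reads, 23 of the 60 at 3 counts or fewer everywhere, could not be compared at this depth.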
